A study of Homo sapiens with 18 samples.

Results

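The Kruppel-like factors are transcription factors that bind CACCC and GC-rich sequences through zinc fingers at the end of the protein. The symbols KLF2, KLF3, KLF4, KLF5, KLF6, KLF7, KLF9, KLF10, KLF11 and KLF13 were taken by name from the deposited table, so that 10 of its 57448 genes are described here, each in all 18 libraries. RNA was sequenced from MDA-MB-231 cells, a human triple negative breast cancer line, in 6 groups of 3 replicates. The groups were untreated parental cells (WT), untreated cells labelled GPS2 knockout 1 and knockout 2 (KO1 and KO2), the same lines after 4 h in 10 µM MK2206, an allosteric AKT inhibitor (KO1+MK and KO2+MK), and untreated cells that express myristoylated AKT (myrAKT). Each knockout line was a pool, not a clone, made with lentiviral Cas9, a different set of sgRNAs against GPS2 and puromycin, and the myrAKT line carried a retrovirus with a puromycin marker. WT carried no vector, no vehicle is named for the untreated cells, and no WT or myrAKT cells were treated with MK2206. GPS2 is a subunit of a nuclear corepressor complex, and AKT is a kinase activated at the membrane by growth factor signalling.

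Members of the family differ in the partners they recruit. KLF3 binds the corepressor CTBP. KLF9, KLF10, KLF11 and KLF13 bind the corepressor SIN3A, and KLF10 and KLF11 were first described as genes induced by TGF-beta. KLF2, KLF4, KLF5, KLF6 and KLF7 carry activation domains. KLF2 acts in the quiescence of endothelium and lymphocytes, KLF4 in epithelial differentiation and in reprogramming to pluripotency, and KLF5 in the growth of basal epithelium. KLF6 is studied as a growth suppressor and KLF7 as a regulator of neurons. KLF9 is known as a target of glucocorticoid and thyroid hormone receptors and KLF13 as a regulator of chemokine expression in T cells.

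Promoters in RefSeq (GRCh38.p14) were found for 8 of the 10 members, not for KLF3 and KLF10, and the 250 bases before the start site are shown for 3 genes whose RNA gave different patterns below. KLF9 and KLF13 both had less RNA in the knockout lines, and KLF5 had more. Capitals mark the CACCC box (CACCC or, on the other strand, GGGTG) and the GC box (GGGCGG or CCGCCC).
KLF9, minus strand, chr9:70414658-70414907: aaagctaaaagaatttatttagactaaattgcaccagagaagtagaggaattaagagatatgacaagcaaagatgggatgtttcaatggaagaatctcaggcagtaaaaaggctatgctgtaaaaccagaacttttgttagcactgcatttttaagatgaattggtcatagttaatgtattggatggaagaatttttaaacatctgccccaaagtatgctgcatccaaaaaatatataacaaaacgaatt
KLF13, plus strand, chr15:31326585-31326834: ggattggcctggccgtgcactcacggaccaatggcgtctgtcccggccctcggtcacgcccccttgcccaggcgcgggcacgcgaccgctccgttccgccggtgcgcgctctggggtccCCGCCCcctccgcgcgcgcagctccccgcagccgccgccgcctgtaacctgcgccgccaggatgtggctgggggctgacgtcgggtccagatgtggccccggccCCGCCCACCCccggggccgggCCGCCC
KLF5, plus strand, chr13:73054726-73054975: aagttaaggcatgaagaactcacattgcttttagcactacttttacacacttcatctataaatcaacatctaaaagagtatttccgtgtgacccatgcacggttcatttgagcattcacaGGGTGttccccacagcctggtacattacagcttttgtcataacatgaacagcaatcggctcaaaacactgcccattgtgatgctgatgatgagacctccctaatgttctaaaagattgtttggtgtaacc
The KLF9 sequence held neither box and had a GC content of 32.4%, and 2.92% of the 35116 promoters in the table had a lower one. The KLF13 sequence had 3 GC boxes, 1 CACCC box that shares a base with a GC box, and 78.8% GC. The KLF5 sequence had 1 CACCC box and no GC box at 40.8% GC, while another KLF5 start site, 3′ of this one, had 2 of each. A CACCC box was found in 54.7% and a GC box in 42.6% of all promoters, so neither was rare. A FOXO element (TGTTTAC or GTAAACA), present in 2.98% of promoters, was found in none of the 13 windows of the 8 members. A MEF2 site, present in 0.515% of promoters, was found in the KLF2 window only, and these matches are letters in a window, not measured sites.

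In hg38 with GENCODE release 44, KLF2 lies on chromosome 19 from 16324826 to 16328685, KLF3 on chromosome 4 from 38664197 to 38701517 and KLF4 on chromosome 9 from 107484852 to 107490482. KLF5 lies on chromosome 13 from 73054976 to 73077541, KLF6 on chromosome 10 from 3775996 to 3785281 and KLF7 on chromosome 2 from 207074137 to 207173856. KLF9 lies on chromosome 9 from 70384604 to 70414657, KLF10 on chromosome 8 from 102648784 to 102655725, KLF11 on chromosome 2 from 10042849 to 10054836 and KLF13 on chromosome 15 from 31326835 to 31435665. Exons of KLF3, KLF4, KLF7 and KLF11 overlap noncoding genes on the opposite strand. The sources used here do not say whether the counting used strand, so reads from the 2 strands cannot be told apart there. The overlapping genes that are in the count table had 6 to 149 counts over all 18 libraries. Of the processed pseudogenes named after a member, KLF3P1 had at most 64 counts in a library, KLF4P1 at most 10, and those of KLF2 and KLF7 at most 1.

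Counted reads ranged from 23419198 to 39319910 in a library, and the MK2206-treated libraries were the shallowest (23419198 to 29939536 reads, against 35627965 to 39319910 in untreated KO1 and KO2). All 10 members passed the expression filter, a level of 1 CPM (counts scaled to library size) or more in 3 or more libraries, and the lowest count of any member was 117 reads, for KLF9 in KO2. The cell line markers VIM and CD44 stood at 1362 and 580.4 normalized CPM in WT, and ESR1, PGR and CDH1, which define other breast cancer lines, at 0.962, 0.120 and 0.0365 normalized CPM. ERBB2 and EPCAM, also listed for other lines, passed the expression filter, as did ESR1. So did KRT8, KRT18 and EGFR, listed for this line. GPS2 RNA was not reduced in KO1 and KO2 (log2 fold change 0.19, adjusted p = 0.246), and a gene count need not show an edit. The paper reports that western blot and genomic PCR showed the GPS2 knockdown to be effective. AKT1 RNA was higher in myrAKT than in WT by 0.77 on the log2 scale (adjusted p = 4.27e-09), and its counts can include reads of the transgene. Levels are given below as CPM normalized with the TMM method of edgeR, and changes as log2 fold changes from its quasi-likelihood test, called at a p of at most 0.001 adjusted over the 15587 genes tested. P-values measure only the spread between these samples, since nothing states that replicates were separate cultures. In a pool, fewer cells with an RNA and less of the RNA per cell cannot be told apart.

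**Figure D1:**
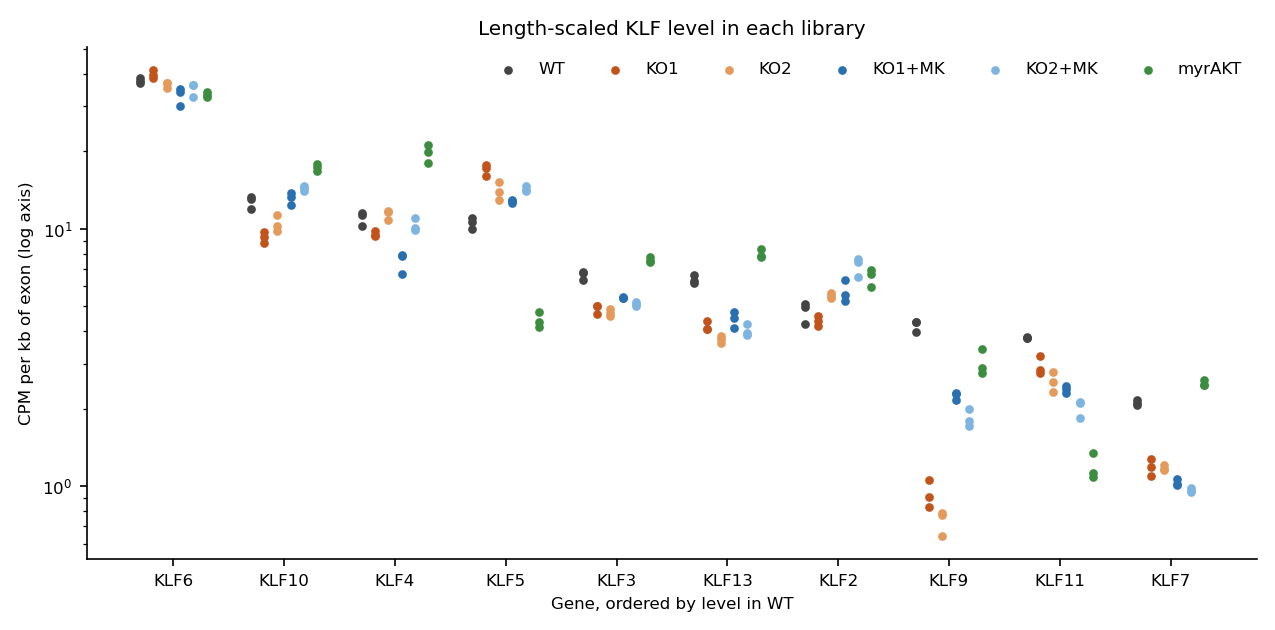
Length-scaled level (normalized CPM per kb of exon, log axis) of each member in each of the 18 libraries, coloured by group, with genes ordered from the highest to the lowest WT mean. KLF6 is highest in every group, KLF9 drops from 4.23 in WT to 0.933 and 0.734 in KO1 and KO2, and KLF4 and KLF5 separate in myrAKT, at 19.7 and 4.42.

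Scaled by exon length, KLF6 was the most abundant member in WT, at 37.7 ± 0.715 CPM per kb (SD, n = 3). It was followed by KLF10, KLF4 and KLF5 at 12.8 ± 0.685, 11.0 ± 0.671 and 10.5 ± 0.531 CPM per kb. KLF3 and KLF13 followed at 6.62 ± 0.268 and 6.35 ± 0.227, KLF2, KLF9 and KLF11 at 4.78 ± 0.440, 4.23 ± 0.225 and 3.79 ± 0.0200, and KLF7 was lowest at 2.12 ± 0.0432 CPM per kb. In this order the neighbours KLF4 and KLF5, and KLF3 and KLF13, had overlapping WT libraries, as did KLF2 and KLF9, while the other neighbours did not overlap. The order was not the same in the other groups. KLF9 had the lowest level per kb in KO1 (0.933 ± 0.114) and in KO2 (0.734 ± 0.0794), KLF5 came next after KLF6 in both, and in myrAKT KLF4 came next after KLF6 at 19.7 ± 1.64 and KLF11 last at 1.19 ± 0.143 CPM per kb.

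**Figure D2:**
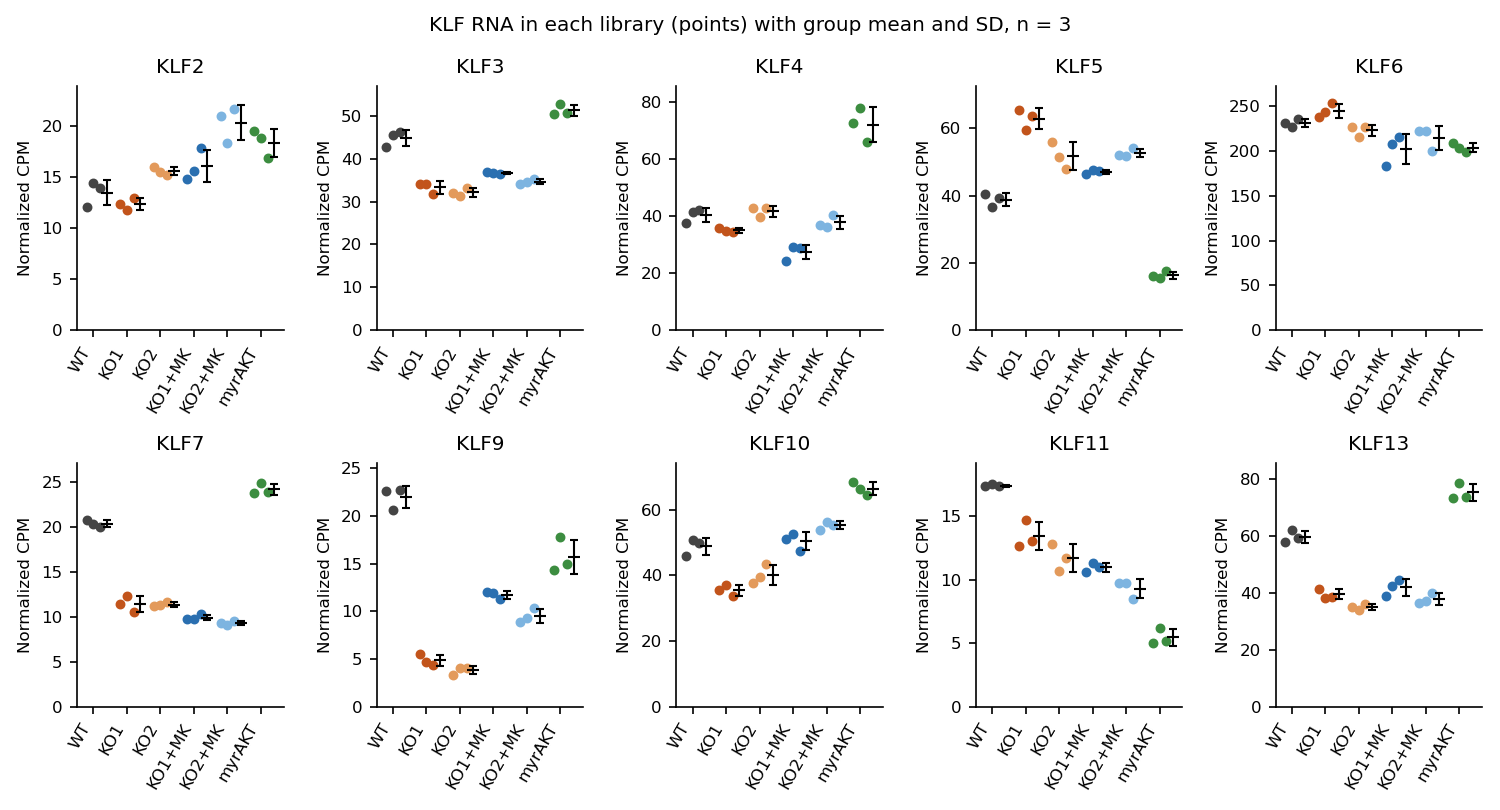
Normalized CPM (axes start at 0) of each member in each library (points), with the group mean and SD beside them (n = 3), for the 6 groups. KLF9 has the highest values in WT and the lowest in KO1 and KO2, with no overlap among the 6 groups, whereas KLF6 covers a narrow range of 184 to 254.

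The first comparison asked which members differ between the knockout lines and parental cells. KLF3, KLF7, KLF9, KLF10, KLF11 and KLF13 were lower in KO1 and KO2, KLF5 was higher, and KLF2, KLF4 and KLF6 did not pass the test. KLF9 changed most, to 0.218 of its WT level in KO1 and 0.173 in KO2. Thus 1 member rose and 6 fell, and over all genes tested 32.1% were called, 15.5% higher and 16.6% lower. The median log2 fold change was -0.43 over the members and -0.00 over all genes. The 9 libraries of these groups did not overlap for 7 of the members and for 55.9% of all genes. Each line alone against WT gave the same counts, 1 higher and 6 lower. For KO1 41.7% of all genes were called, 20.5% higher and 21.3% lower, and for KO2 43.1%, 20.8% higher and 22.2% lower. Single libraries decided some of these calls. KLF11 lost its call in KO1 without WT replicate 3 or KO1 replicate 1 or 3 (adjusted p 0.00109 to 0.00177), KLF10 lost its call in KO2 without WT replicate 2 or 3 or KO2 replicate 1 or 2 (0.00206 to 0.00519), and KLF4 gained one in KO1 without WT replicate 1 (log2 fold change -0.27, adjusted p = 2.28e-05).

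Among the members that bind SIN3A, KLF9 stood at 22.7, 20.7 and 22.7 normalized CPM in WT, at 5.50, 4.72 and 4.34 in KO1 and at 3.34, 4.09 and 4.03 in KO2. All WT libraries lay above all knockout libraries, and KO1 above KO2. The log2 fold change of the pooled lines was -2.36 ± 0.111 (SE, adjusted p = 7.64e-08), a 5.13-fold lower level. It was -2.20 in KO1 and -2.53 in KO2 alone. KLF13 stood at 58.1, 62.2 and 59.2 in WT, at 41.5, 38.4 and 38.6 in KO1 and at 35.2, 34.0 and 36.2 in KO2. It was lower in every knockout library, with a log2 fold change of -0.70 ± 0.0585 (adjusted p = 1.84e-06). KLF11 stood at 17.3, 17.5 and 17.3 normalized CPM in WT, at 12.6, 14.7 and 13.0 in KO1 and at 12.8, 10.7 and 11.7 in KO2. All WT libraries lay above all knockout libraries, while KO1 and KO2 overlapped, with a log2 fold change of -0.49 ± 0.0833 (adjusted p = 0.000377). KLF10 stood at 45.8, 50.7 and 49.9 in WT, at 35.6, 37.0 and 33.7 in KO1 and at 37.5, 39.4 and 43.4 in KO2. The WT libraries again lay above all 6 knockout libraries, with a log2 fold change of -0.39 ± 0.0700 (adjusted p = 0.000542).

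KLF3, which binds CTBP, stood at 42.7, 45.5 and 46.1 normalized CPM in WT, at 34.1, 34.1 and 31.7 in KO1 and at 31.9, 31.2 and 33.2 in KO2. It was lower in all 6 knockout libraries, with a log2 fold change of -0.47 ± 0.0442 (adjusted p = 4.11e-06). KLF7 stood at 20.8, 20.3 and 20.0 in WT, at 11.4, 12.3 and 10.6 in KO1 and at 11.1, 11.3 and 11.6 in KO2. It had the largest fall after KLF9, with a log2 fold change of -0.86 ± 0.0543 (adjusted p = 3.32e-07), and KO1 and KO2 gave the same value against WT, -0.85.

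KLF5 was the member that rose. It stood at 40.5, 36.7 and 39.2 normalized CPM in WT, at 65.3, 59.3 and 63.8 in KO1 and at 55.9, 51.4 and 47.9 in KO2. All knockout libraries were above WT and KO1 was above KO2, with a log2 fold change of 0.54 ± 0.0931 (adjusted p = 0.00038), of 0.68 for KO1 and of 0.41 for KO2. KLF6 ranged from 227 to 236 in WT, from 238 to 254 in KO1 and from 216 to 227 in KO2, and its log2 fold change of -0.00 had a 95% confidence interval of -0.11 to 0.10. KLF2 (log2 fold change 0.03, interval -0.20 to 0.26) and KLF4 (-0.09, interval -0.27 to 0.08) overlapped WT when the lines were pooled. By line, KLF2 lay above all WT libraries in KO2 (log2 fold change 0.20, adjusted p = 0.028) and overlapped them in KO1 (-0.14), and KLF4 lay below all WT libraries in KO1 (-0.22, adjusted p = 0.00102) and overlapped them in KO2 (0.04), and none of these passed the test. With a fold change of at least 1.5 as a further condition 3 members remained past the threshold, KLF7, KLF9 and KLF13, where 12.7% of all genes were. Without any one of the 3 WT libraries KLF5, KLF10 and KLF11 lost the call in the pooled fit (adjusted p 0.00152 to 0.00754), leaving KLF3, KLF7, KLF9 and KLF13, while the share of all genes called fell from 32.1% to between 21.8% and 23.4%. Their log2 fold changes in these fits stayed between 0.52 and 0.58 for KLF5, -0.43 and -0.34 for KLF10, and -0.48 and -0.46 for KLF11. KLF10 also lost it without KO1 replicate 1 or 2 or KO2 replicate 1 or 2 (0.00115 to 0.00225). With a term for the replicate number, KLF5 (0.00138), KLF10 (0.00187) and KLF11 (0.00211) did not pass either, and 23.9% of all genes were called.

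KO1 and KO2 were also compared with each other. KLF5 was higher in KO1 (log2 fold change 0.27 ± 0.0511, adjusted p = 0.000614), while KLF2 (-0.34 ± 0.0602, adjusted p = 0.000302) and KLF4 (-0.26 ± 0.0438, adjusted p = 0.000176) were lower, so 3 of 10 members differed against 12.6% of all genes, of which 7.06% were higher and 5.54% lower. KLF2 stood at 12.4, 11.8 and 13.0 normalized CPM in KO1 and at 16.0, 15.6 and 15.2 in KO2. KLF4 stood at 36.0, 34.7 and 34.3 in KO1 and at 42.8, 39.6 and 42.8 in KO2. The WT mean lay between those of the lines for both genes, at 13.5 ± 1.24 for KLF2 and 40.4 ± 2.46 for KLF4. Each of these calls was lost without some single libraries. KLF2 lost it without KO1 replicate 1 or 2 or KO2 replicate 1 (adjusted p 0.00197 to 0.00247), KLF4 without KO1 replicate 3 or KO2 replicate 1 (0.00145 and 0.00169), and KLF5 without KO1 replicate 1 or 3 or KO2 replicate 3 (0.00263 to 0.00801). KLF5 also lost it when libraries were scaled by upper quartiles (0.00103).

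**Figure D3:**
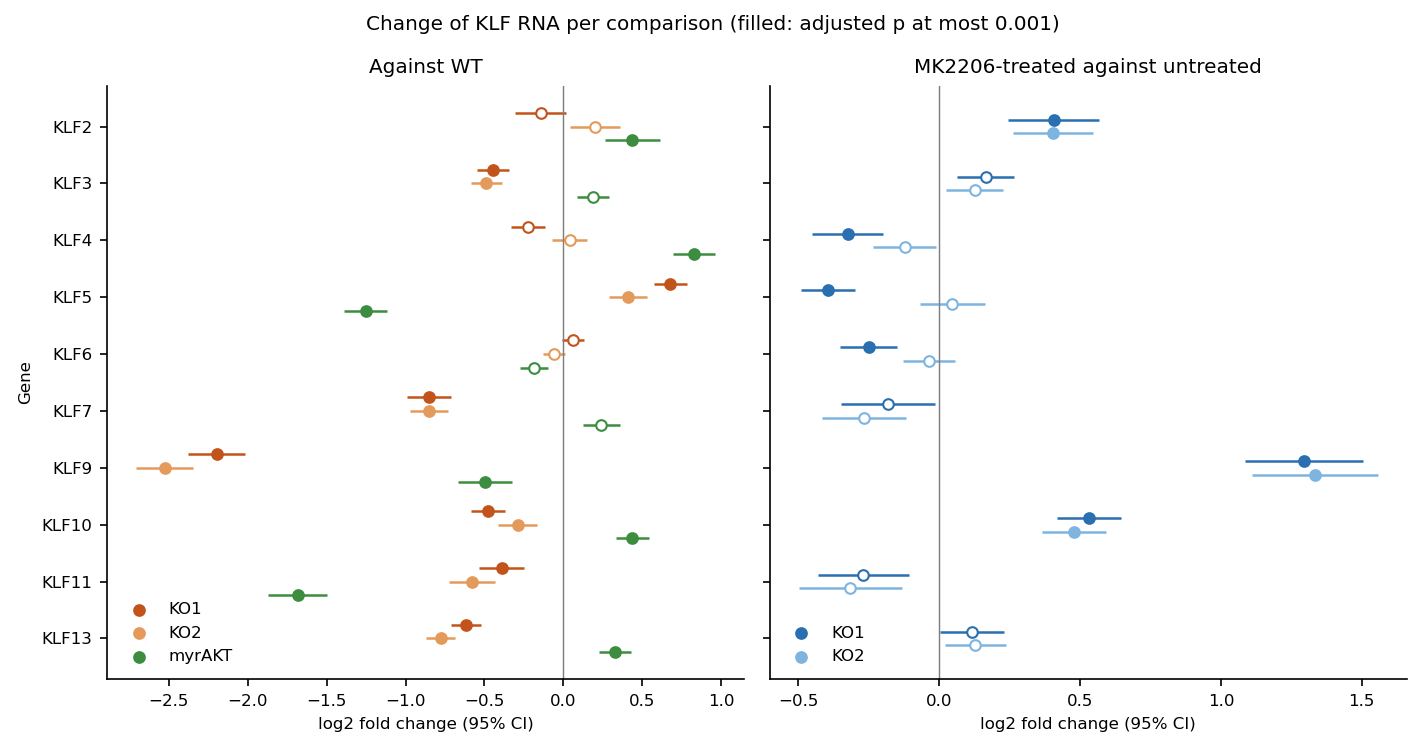
Log2 fold change of each member with its 95% confidence interval, for KO1, KO2 and myrAKT against the same WT libraries (left) and for MK2206-treated against untreated cells of each line (right); filled points passed an adjusted p of 0.001. KLF9 reaches -2.20 and -2.53 in KO1 and KO2, KLF5 and KLF11 reach -1.25 and -1.68 in myrAKT, and after MK2206 KLF9 rises by 1.30 and 1.33.

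The next comparison asked which members differ in cells with constitutively active AKT. In myrAKT, KLF2, KLF4, KLF10 and KLF13 were higher than in WT and KLF5, KLF9 and KLF11 were lower, while KLF3, KLF6 and KLF7 did not pass the test. The largest differences were falls of KLF11 and KLF5, to about 0.311 and 0.419 of WT, and a rise of KLF4. Over all genes tested 30.0% were called, 12.7% higher and 17.3% lower. The 3 libraries of myrAKT and of WT did not overlap for any of the 10 members, a state found for 60.8% of all genes.

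KLF11 stood at 4.98, 6.20 and 5.17 normalized CPM in myrAKT, against a WT mean of 17.4 ± 0.0921 (SD, n = 3). Its log2 fold change of -1.68 ± 0.0873 (adjusted p = 1.48e-09) was the largest of the members in either direction. KLF5 stood at 15.9, 15.3 and 17.5 in myrAKT, below WT and below every other group, with a log2 fold change of -1.25 ± 0.0647 (adjusted p = 1.42e-09). KLF9 stood at 14.3, 17.7 and 15.0, between WT and all knockout libraries, with a log2 fold change of -0.50 ± 0.0789 (adjusted p = 0.000104). This call was lost without WT replicate 3 (adjusted p = 0.00106). KLF4 stood at 72.7, 77.9 and 65.9, above every other group, with a log2 fold change of 0.83 ± 0.0620 (adjusted p = 5.8e-08). KLF10 stood at 68.4, 66.3 and 64.3 and KLF13 at 73.6, 78.8 and 73.8, again the highest of the 6 groups. Their log2 fold changes were 0.44 ± 0.0494 (adjusted p = 3.91e-06) and 0.33 ± 0.0464 (adjusted p = 3.49e-05). KLF2 stood at 19.5, 18.8 and 16.8 (log2 fold change 0.44 ± 0.0805, adjusted p = 0.00037), and it lost the call without WT replicate 1 or 3 or myrAKT replicate 1 or 2 (0.00133 to 0.00326). KLF3, KLF6 and KLF7 had log2 fold changes of 0.19, -0.19 and 0.24, with adjusted p-values of 0.00445, 0.00148 and 0.0018. KLF6 passed the test without myrAKT replicate 1 (adjusted p = 0.000782) and with DESeq2 (adjusted p = 4.41e-05). With libraries scaled by their totals KLF3 and KLF7 passed it (adjusted p = 0.000743 and 0.000669). Of the 8 cell line markers tested, 1 was higher and 4 were lower in myrAKT than in WT, with a median log2 fold change of -0.28. VIM was higher (0.35), and CD44 (-0.50), KRT18 (-0.35), EGFR (-0.51) and EPCAM (-1.90) were lower. In KO1 and KO2 together none of these 8 was higher and 1, EPCAM, was lower than in WT (-0.41), with a median of -0.07. By line, 3 were higher and 1 lower in KO1, where 20.5% and 21.3% of all genes were. In KO2 1 was higher and 1 lower (20.8% and 22.2% of all genes). In KO1 against KO2 3 were higher, where 7.06% of all genes were, and 0 lower. The part of the marker differences in the changes of the members was not tested.

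The knockout and myrAKT comparisons share their WT libraries, so the lines were also compared directly. In KO1 and KO2 together, KLF5 and KLF11 were higher than in myrAKT, and KLF3, KLF4, KLF7, KLF9, KLF10 and KLF13 were lower. That is 8 of 10 members, where 35.8% of all genes were called, 19.1% higher and 16.7% lower, and no member overlapped between the groups, a state found for 56.5% of all genes. KLF5 was 3.47-fold higher (log2 fold change 1.80 ± 0.101, adjusted p = 7.19e-08) and KLF11 2.29-fold higher (1.19 ± 0.107, adjusted p = 2.28e-06). KLF9 had a log2 fold change of -1.87 ± 0.123 (adjusted p = 2.16e-07), KLF7 of -1.10 and KLF13 of -1.03. KLF4, KLF10 and KLF3 had log2 fold changes of -0.93, -0.83 and -0.66. KLF2 (-0.41, adjusted p = 0.00462) and KLF6 (0.18, adjusted p = 0.00491) did not pass the test, although KLF2 did with DESeq2 (0.000487). Both passed with all 18 libraries in 1 fit (1.46e-05 and 0.000358), which called 51.1% of all genes. Of the 8 cell line markers, 4 were higher than in myrAKT and none lower, with a median log2 fold change of 0.37.

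Treatment of the knockout lines with MK2206 asked which members respond to AKT inhibition within hours. KLF9 and KLF10 were higher after 4 h in both lines, and no other member passed the test when the lines were pooled. Over all genes tested 21.5% were called, 12.8% higher and 8.75% lower. KLF9 rose 2.48-fold and KLF10 1.42-fold. Within each line 3 members rose, KLF2, KLF9 and KLF10. In KO1, KLF4, KLF5 and KLF6 were also lower, and in KO2 no member was. Of all genes 19.2% were called in KO1, 10.9% higher and 8.26% lower, and 21.9% in KO2, 13.1% higher and 8.78% lower. The 6 treated and 6 untreated libraries did not overlap for 3 members, KLF7, KLF9 and KLF10, and for 27.4% of all genes.

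KLF9 stood at 12.03, 11.9 and 11.2 normalized CPM in KO1+MK and at 8.93, 9.30 and 10.4 in KO2+MK. All 6 treated libraries were above all 6 untreated ones, of which the highest was 5.50, and below all WT and myrAKT libraries. The pooled log2 fold change was 1.31 ± 0.112 (SE, adjusted p = 5.83e-07), and KO1 and KO2 gave 1.30 and 1.33. KLF10 stood at 50.9, 52.7 and 47.4 in KO1+MK and at 53.9, 56.3 and 55.4 in KO2+MK. These too were above all 6 untreated libraries, which reached 43.4 at most, and those of KO1+MK overlapped WT. The pooled log2 fold change was 0.50 ± 0.0602 (adjusted p = 1.13e-05), with 0.53 in KO1 and 0.48 in KO2. Both calls held in the pooled comparison without any one of the 12 libraries.

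KLF2 stood at 14.8, 15.7 and 17.8 in KO1+MK and at 21.0, 18.4 and 21.6 in KO2+MK. It rose by 0.41 in KO1 (adjusted p = 0.000687) and by 0.40 in KO2 (adjusted p = 0.000172) on the log2 scale. The pooled fit, which has no term for the line, gave 0.41 with a larger error and an adjusted p of 0.00583. With the line as a covariate, a fit added after the data were seen, KLF2 passed the test (adjusted p = 1.47e-06), and 7 members were called in place of 2. That fit called 36.3% of all genes, 19.7% higher and 16.7% lower, in place of 21.5%. These were KLF2, KLF3, KLF9 and KLF10, higher, and KLF4, KLF7 and KLF11, lower. The added calls were small, with log2 fold changes of 0.15 for KLF3, -0.22 for KLF4, -0.22 for KLF7 and -0.29 for KLF11. In KO1, the rise of KLF2 lost its call without any one untreated library or without KO1+MK replicate 2 or 3 (adjusted p 0.00218 to 0.00488), and in KO2 without KO2 replicate 1 or 3 (0.00103 and 0.00141). The KO1 call was also lost with upper-quartile scaling (0.00109).

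**Figure D4:**
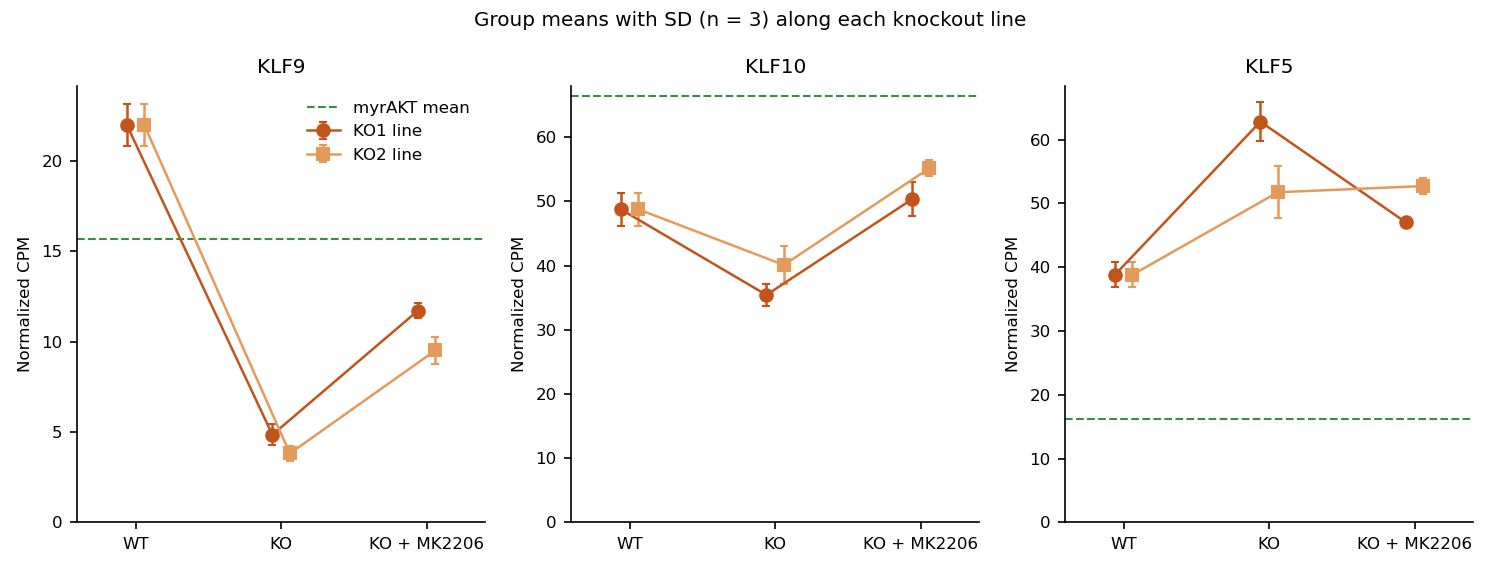
Normalized CPM of KLF9, KLF10 and KLF5 as group means with SD (n = 3) for WT, the untreated knockout line and the same line after MK2206, with KO1 as circles and KO2 as squares and the myrAKT mean as a dashed line. KLF9 and KLF10 fall from WT to both knockout lines and rise after treatment in both, while KLF5 falls after treatment in KO1 (62.8 to 47.0) and not in KO2 (51.7 to 52.7).

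The response of KLF5 differed between the lines. KLF5 stood at 65.3, 59.3 and 63.8 normalized CPM in untreated KO1 and at 46.3, 47.5 and 47.2 in KO1+MK, a fall with no overlap (log2 fold change -0.39 ± 0.0441, adjusted p = 1.29e-05). In KO2 it stood at 55.9, 51.4 and 47.9 before and at 52.1, 51.9 and 54.2 after treatment, and the groups overlapped (0.05 ± 0.0540, adjusted p = 0.514). The MK2206 effect in KO1 minus that in KO2 was -0.44 ± 0.0733 on the log2 scale (edgeR interaction term, adjusted p = 0.0155, threshold 0.05). KLF5 was the only member past this threshold, where 0.244% of all genes were, 0.0449% with a higher and 0.199% with a lower effect in KO1. The call was lost without KO1 replicate 1 or 3 (difference -0.41 and -0.43, adjusted p = 0.0638 and 0.0652). For KLF4 and KLF6, which were lower in KO1+MK (log2 fold changes -0.33 and -0.25), the difference between the lines was -0.20 and -0.21 (adjusted p = 0.529 and 0.382), so a different response of these genes was not shown. The KO1 calls of KLF4 and KLF6 were lost without any one untreated KO1 library (0.00236 to 0.00817), and that of KLF6 also without KO1+MK replicate 2 (0.00209) and with libraries scaled by their totals (0.00133).

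Treated knockout cells were set against untreated WT, a comparison in which line and treatment both differ. KLF9 was still 2.08-fold lower than in WT (log2 fold change -1.06 ± 0.0930, adjusted p = 2.25e-06). KLF10 did not pass the test, at a log2 fold change of 0.11 with a 95% interval of -0.03 to 0.24 (adjusted p = 0.15). KLF7, KLF11, KLF13 and KLF3 were lower by log2 fold changes of -1.09, -0.79, -0.59 and -0.34, and KLF5 was higher by 0.36, so 6 of 10 members were called, against 32.0% of all genes, 16.0% higher and 16.1% lower. KLF2, KLF4 and KLF6 did not pass the test. With all 18 libraries in 1 fit KLF2 (0.42, adjusted p = 1.33e-05) and KLF4 (-0.32, adjusted p = 3.36e-05) passed. That fit called 49.7% of all genes. KLF7 and KLF11 had means of 9.91 ± 0.298 and 11.0 ± 0.335 normalized CPM in KO1+MK and of 9.31 ± 0.199 and 9.29 ± 0.730 in KO2+MK, below those of the untreated lines, although neither passed the main test of treated against untreated cells (adjusted p = 0.00201 and 0.00956). In that comparison KLF7 passed with DESeq2 (0.000571), with upper-quartile scaling (0.000845), with all 18 libraries in 1 fit (6.9e-05) and with the line as a covariate (0.000637), and KLF11 passed in these last fits (0.000106 and 0.000241). The call of KLF5 was lost without any one WT library (0.00125 to 0.00305), without the expression filter (0.00103) and with a term for the replicate number (0.00158).

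The same counts can be read with a fold change of at least 1.5 required beside the adjusted p. After MK2206 KLF9 was then the only member left in the pooled lines, in KO1 and in KO2, where 6.53%, 5.01% and 7.06% of all genes were. Against WT, 4 members were left in KO1 (KLF5, KLF7, KLF9 and KLF13, with 13.9% of all genes), 3 in KO2 (KLF7, KLF9 and KLF13, with 16.7%), 3 in myrAKT (KLF4, KLF5 and KLF11, with 13.8%) and 4 in treated knockout cells (KLF7, KLF9, KLF11 and KLF13, with 15.0%). Between KO and myrAKT all 8 called members were left, with 16.2% of all genes. No member was left between KO1 and KO2 or in the difference of the MK2206 effect, with 2.62% and 0.0449% of all genes.

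Set in order over the 6 groups, KLF9 ran from WT through myrAKT, KO1+MK, KO2+MK and KO1 to KO2, and no neighbours overlapped. KLF13 ran from myrAKT (75.4 ± 2.98 normalized CPM, SD, n = 3) and WT to the 4 knockout groups between 42.0 ± 2.93 and 35.1 ± 1.11, among which KO1+MK, KO1 and KO2+MK overlapped in turn. KLF3 had the same order of its 2 highest groups, and of its knockout groups KO2+MK, KO1 and KO2 overlapped in turn. KLF7 ran from myrAKT and WT to KO1 and KO2, which overlapped, and then to the treated lines. KLF11 ran from WT through KO1, KO2 and KO1+MK, which overlapped in turn, to KO2+MK and myrAKT. KLF10 was highest in myrAKT, followed by KO2+MK, by KO1+MK and WT, which overlapped, and by KO2 and KO1. KLF5 was highest in KO1, followed by KO2+MK and KO2, which overlapped, and by KO1+MK, WT and myrAKT. KLF4 was highest in myrAKT, with KO2, WT and KO2+MK overlapping in turn below it, and lowest in KO1+MK. KLF2 was highest in KO2+MK, and its neighbours overlapped down to KO2, above WT and KO1. KLF6 was highest in KO1, followed by WT, and the 4 other groups overlapped in turn between 223 ± 6.11 and 202 ± 16.7 normalized CPM.

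Across the 18 libraries the log2 CPM of KLF3 and KLF13 had the highest correlation of any pair of members (Pearson r = 0.982), followed by KLF7 with KLF13 (0.934). The most negative were KLF3 with KLF5 (-0.904) and KLF5 with KLF13 (-0.893). These values describe 18 points that share 6 groups and so follow the group differences above. By the same measure, among the 11878 genes that averaged 100 or more counts, the closest genes to KLF9 were GRAMD1B (0.984) and ADAMTS9 (0.979), and the closest to KLF13 was TAPBP (0.991). TAPBP was also the closest to KLF3 (0.984), followed by DNASE2 (0.983). The closest to KLF5 were TJP1 (0.989) and TAGLN (0.986), to KLF7 SULT1C2 (0.989) and BTN3A3 (0.984), to KLF10 TUT7 (0.971) and HSPA12A (0.967), and to KLF11 TRIM44 (0.983) and TNFRSF1B (0.981). For KLF4 they were CAPG (0.972) and SASH1 (0.971), for KLF2 CKS2 (0.943) and MAF1 (0.936), and for KLF6, which varied least, ZSCAN21 (0.899) and STK25 (0.896).

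The members share one further feature that the choice by name did not use, the pentamer AUUUA after the stop codon, which is found in short-lived RNAs. Counted on the canonical transcripts as ATTTA, it occurred at least once in all 10, from 2 times in KLF4 to 20 times in KLF7, and in 70.9% of 18481 coding genes. Its density per kb placed the members between the 37.0 (KLF13) and 72.6 (KLF5) percentile of these genes, so it did not set them apart.

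Genes around the family were read from lists of partners, upstream kinases, turnover enzymes and described targets. Their counts stand against shares over all genes tested of 15.5% higher and 16.6% lower in the knockout lines, 12.7% and 17.3% in myrAKT and 12.8% and 8.75% after MK2206, and all-gene medians of the log2 fold change of -0.00, 0.02 and -0.00. The list medians in these 3 comparisons were -0.07, 0.05 and -0.08 for the other KLF and SP factors, 0.24, 0.06 and -0.05 for the cofactors, and 0.07, 0.14 and 0.40 for the MEK5, ERK5 and MEF2 genes. They were -0.05, -0.04 and 0.09 for the turnover enzymes and -0.22, -0.27 and -0.01 for the described targets. By line, the shares of all genes were 20.5% higher and 21.3% lower in KO1 and 20.8% and 22.2% in KO2, against WT. After MK2206 they were 10.9% and 8.26% in KO1 and 13.1% and 8.78% in KO2. Of 9 other KLF and SP factors tested, 3 were higher and 1 lower in KO1 and KO2 than in WT, with log2 fold changes of 0.36 for KLF16, 0.33 for SP3 and -0.60 for SP6. After MK2206 3 were higher and 1 lower, among them SP6 (0.62), SP4 (0.59) and KLF12 (0.51), and in myrAKT 2 were lower, KLF15 (-1.44) and SP6 (-0.82). Of 15 cofactors tested, 6 were higher and 1 lower in the knockout lines, among them SAP30, a subunit of the SIN3A complex (0.43), and the acetyltransferases CREBBP (0.40) and KAT2A (0.35). In myrAKT 1 was higher, RCOR1 (0.39), and 1 lower, CREBBP (-0.52). After MK2206 2 were higher, EP300 (0.51) and CREBBP (0.35), and 4 lower, among them FHL3 (-0.43). By line, 3 cofactors were higher and 2 lower after MK2206 in KO1, and 3 higher and 1 lower in KO2. The kinases MEK5 and ERK5 and the MEF2 factors are known to induce KLF2 and KLF4. Of the 7 tested in this group, 1 was higher and 3 lower in the knockout lines, 3 were higher in myrAKT and 4 were higher after MK2206. The counts by line were not the same, with 1 higher and 3 lower in KO1 (median -0.02) and 4 higher and 3 lower in KO2 (median 0.17). MEF2D had log2 fold changes of -0.53 in the knockout lines and 0.71 after MK2206, and MEF2C of 1.31 in myrAKT. MEF2D was also lower in the knockout lines than in myrAKT (-0.53). MEF2C was lower in KO1 than in KO2 by a log2 fold change of -0.46 (adjusted p = 4.93e-05). Of 12 turnover enzymes, 1 was higher and 4 lower in the knockout lines, 2 higher and 2 lower in myrAKT, and 5 higher and 1 lower after MK2206. FBXO32, a subunit of a ubiquitin ligase, had log2 fold changes of -1.67 in the knockout lines and 1.42 after MK2206, and SMURF2, a ubiquitin ligase, was lower in both comparisons (-0.42 and -0.43). FBXO32 was also lower in the knockout lines than in myrAKT (-1.96). Of 19 described target genes tested, 5 were higher and 7 lower in the knockout lines, 5 higher and 10 lower in myrAKT, and 5 higher and 1 lower after MK2206. By line, 5 were higher and 10 lower in KO1 than in WT and 6 higher and 7 lower in KO2, and after MK2206 3 were higher and 3 lower in KO1 (median -0.07) and 5 higher and 4 lower in KO2 (median 0.05). CDKN1A, an inhibitor of cyclin-dependent kinases, had log2 fold changes of -0.75 in the knockout lines and 1.86 after MK2206, and TXNIP, an arrestin that limits glucose uptake, of -2.04 and 1.24. CDKN1A was also lower in the knockout lines than in myrAKT (-1.51), while TXNIP was lower in myrAKT than in WT (-1.32). THBD, which codes for the anticoagulant receptor thrombomodulin, was lower in the knockout lines by a log2 fold change of -0.88, had one of -0.37 after MK2206 that did not pass the pooled test (adjusted p = 0.0108), and stood at -1.26 in treated knockout cells against WT. Many of these targets answer to other factors as well, and the part of the KLF RNAs in their changes was not tested.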

How the data were processed

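The authors deposited raw counts, that is whole numbers of reads per Ensembl gene, with no normalization. Per the paper's methods and the submitters' processing notes, libraries depleted of ribosomal RNA were sequenced as 1 pool in 2 runs, checked with FastQC and MultiQC, trimmed with Trim Galore, aligned to hg38 with HISAT2 and counted with featureCounts. The annotation, the strand setting and the treatment of reads in more than 1 gene are not given in the sources used here. No batch is named.

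Samples were grouped by their labels. A gene name table gave a symbol to 41445 of 57448 identifiers, and 15061 genes had no count. The 15587 genes that reached 1 CPM in 3 or more of the 18 libraries were tested in R 4.3.3 with edgeR 4.0.16 (TMM, quasi-likelihood test, two-sided, Benjamini-Hochberg adjustment), fitting only the groups compared and pooling KO1 and KO2 where KO is named. CPM used all counted reads and the TMM factors. Exon lengths were the union of GENCODE 44 exons. Standard errors were derived from the F statistic and 95% intervals from edgeR's degrees of freedom. Pairs of replicates differed by more than counting error, so none was taken for a library deposited more than once, which does not show separate cultures. The fit was tested on simulated counts with 200 changed genes per comparison. This was done only for KO against WT, myrAKT against WT and MK2206 in the pooled lines.

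The members and gene lists were chosen with earlier results of these data known. Named were all members, at most 3 genes per list and comparison with the largest change past the threshold, the 2 genes most correlated with each member (1 of them is not reported here), GPS2 and AKT1. Values for CD44, VIM, ESR1, PGR and CDH1 describe the cell line. Outside this rule, and chosen after their values were seen, are the 5 cell line markers named for myrAKT and the value of THBD after MK2206. Alternatives were DESeq2 1.42.0, other normalizations in edgeR, other filters and thresholds, all libraries in 1 fit, a replicate block, the omission of each library and, added after seeing the data, the line as a covariate. Figures were drawn with Python 3.11.15 and matplotlib 3.10.9.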

Additional observations from a re-analysis of the deposited data

Results flagged for a closer look

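The MK2206 effect on KLF5 differed between the knockout lines by a direct test. The log2 effect in KO1 minus that in KO2 was -0.44 ± 0.0733 (SE, edgeR interaction term, adjusted p = 0.0155), with a 95% interval of -0.59 to -0.28. KLF5 fell in KO1 (log2 fold change -0.39) and stood at 0.05 in KO2. Before treatment KLF5 was higher in KO1 than in KO2 by 0.27 on the log2 scale, and after it the mean was 47.0 ± 0.638 normalized CPM in KO1+MK and 52.7 ± 1.25 in KO2+MK (SD, n = 3). Without untreated KO1 replicate 1 or 3 the difference was -0.41 and -0.43, and it no longer passed the threshold of 0.05 (adjusted p = 0.0638 and 0.0652).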

How the results depend on the processing

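With a fold change of at least 1.5 required, at an adjusted p of 0.001 as at 0.05, fewer members were called. The number went from 7 to 3 for KO against WT, where the share of all genes called went from 32.1% to 12.7%. It went from 7 to 4 for KO1 (41.7% to 13.9%) and from 7 to 3 for KO2 (43.1% to 16.7%). For myrAKT it went from 7 to 3 (30.0% to 13.8%). After MK2206 it went from 2 to 1 in the pooled lines (21.5% to 6.53%). In the single lines, MK2206 gave 6 to 1 in KO1 (19.2% to 5.01%) and 3 to 1 in KO2 (21.9% to 7.06%). For KO1 against KO2 it went from 3 to 0 (12.6% to 2.62%), and for the interaction from 1 to 0 (0.244% to 0.0449%). These shares are at an adjusted p of 0.001, or 0.05 for the interaction. For MK2206 in the pooled lines, 8 members were called with all 18 libraries in 1 fit (37.2% of all genes) and 7 with the line as a covariate (36.3%), in place of 2 (21.5%). For KO1 against KO2, 5 were called with no filter beyond 1 count (8.12% of the 37890 genes then tested) and 1 with all 18 libraries in 1 fit (9.53% of all genes), in place of 3 (12.6%). Other normalizations and DESeq2 left every count of called members within 1.5 times, but moved single calls. With upper quartiles KLF2 after MK2206 in KO1 (adjusted p = 0.00109) and KLF5 in KO1 against KO2 (0.00103) lost the call, and with library totals KLF6 after MK2206 in KO1 (0.00133). Gained calls were KLF4 in KO1 against WT (0.000487 with upper quartiles, 0.000308 with library totals), and in myrAKT KLF7 (0.000669 with either), KLF3 (0.000743, library totals) and KLF6 (4.41e-05, DESeq2). KLF7 after MK2206 in the pooled lines was called with DESeq2 (0.000571) and upper quartiles (0.000845), and KLF2 in KO against myrAKT with DESeq2 (0.000487). Leaving out single libraries gave 4 to 7 members for KO against WT (21.8% to 31.8% of all genes, against 32.1% with all libraries), 3 to 6 for MK2206 in KO1 (11.2% to 23.2%, against 19.2%), 1 to 3 for KO1 against KO2 (7.45% to 11.7%, against 12.6%) and 0 to 1 for the interaction (0.0257% to 0.552%, against 0.244%).

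Directions turned only for values near 0 that no fit called. For KO against WT, KLF6 went from -0.00 to 0.0015 with DESeq2 and with its size factors, 0.029 without the filter and 0.014 with all 18 libraries, and from -0.028 to 0.032 over single omissions, and KLF2 ranged from -0.035 to 0.10. KLF4 in KO2 against WT ranged from -0.021 to 0.075, KLF5 and KLF6 after MK2206 in KO2 from -0.011 to 0.10 and from -0.064 to 0.013. KLF7 in KO1 against KO2 went to -0.0044 with DESeq2 and with its size factors, -0.011 with upper quartiles, -0.015 with library totals and -0.00014 with the replicate block, and from -0.058 to 0.055 over single omissions. In the interaction, KLF2 went to -0.0012 with DESeq2, -0.00065 with its size factors, -0.017 without the filter, -0.0087 with at least 10 counts in every library and -0.0037 with all 18 libraries, and from -0.078 to 0.040 over omissions. KLF13 went to 0.0067 with upper quartiles and 0.012 with library totals, and from -0.058 to 0.024 over omissions, where KLF9 ranged from -0.11 to 0.060, KLF10 from -0.0037 to 0.099 and KLF11 from -0.031 to 0.12.

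Replicate numbers did not pair the samples, since deviations of same-numbered samples correlated above 0.1 in 12 of 45 pairs (r from -0.518 to 0.297), and 15 of 45 correlated best with their own number. With the replicate block 4 of 10 members were called for KO against WT (23.9% of all genes) in place of 7 (32.1%), and KLF5 (adjusted p = 0.00138), KLF10 (0.00187) and KLF11 (0.00211) did not pass with the block. Nor did KLF5 in treated knockout cells against WT (0.00158). Every group had 3 libraries, no WT library was treated with MK2206, and the treated libraries were the shallowest.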
